A study of Gallus gallus with 6 samples.

Results

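The cholesterol synthesis pathway and its feedback genes were examined in the liver of F1 roosters with and without fatty liver. The list held 31 genes, namely the enzymes that lead from acetyl-CoA to cholesterol, the SREBP2 machinery that sets their level, and genes for sterol uptake, storage and transfer. Each gene was found by matching its symbol to an NCBI Gene ID in the chicken RefSeq gene table. TM7SF2, IDI1, EBP and NPC1L1 had no entry of their own under these symbols, and the other 27 of the 31 genes were found among the 20498 genes of the FPKM table. All 27 had a mean of at least 1 FPKM (a level in which the fragments of a gene are divided by its exon length and by the depth of the library) over the 6 birds, so all 27 were tested.

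The study compared 3 F1 males of the dwarf Jingxing-Huang (JXH) line with fatty liver and 3 without. Those with fatty liver came from the paternal inheritance group, in which sires with fatty liver were mated to hens without it, and both parents had the high-fat diet as adults. Those without it were control birds, whose parents had no fatty liver and received the basal diet. All 6 birds were 36 weeks of age, had the basal diet themselves and gave 1 library of whole liver each. The group and the liver phenotype cannot be told apart in these birds, and it is not stated whether birds of a group shared a sire.

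Cholesterol is built in the liver from acetyl-CoA by way of mevalonate, farnesyl diphosphate, squalene and lanosterol. When membranes of the endoplasmic reticulum run low in sterol, SCAP carries the precursor of the transcription factor SREBP2 (gene SREBF2) to the Golgi, where the site-1 and site-2 proteases (MBTPS1 and MBTPS2) release its active part, which raises the genes of the pathway together. When sterol is plentiful, the INSIG proteins hold SCAP back. Fatty acid synthesis starts from the same acetyl-CoA but is driven mainly by SREBP1 (gene SREBF1) and the carbohydrate sensor ChREBP (gene MLXIPL), and liver is its main site in birds, so the comparison asked whether the sterol pathway followed fatty acid synthesis in fatty liver or stayed apart.

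The libraries held between 8860634 and 10403637 fragments, as worked out from the FPKM. The lowest value behind any of the 27 genes was 12 fragments. The median log2 difference of all 10886 tested genes was 0.12 in fatty liver against control, and it was -0.01 once the 50 most abundant genes were left out of the library totals, so a small positive difference of a single gene is not distinct from this shift. Among the control birds, bird 2 had the highest value in 54.4% of all tested genes. Hepatocyte markers were high in every bird, apart from CPS1, which stayed at or under 1.27 FPKM in fatty liver and 0.481 FPKM in control. They did not move together, with 2 of 7 tested estimates above 0 and 5 below. ALB was between 62320 and 74473 FPKM in fatty liver and between 90339 and 107416 FPKM in control. APOA1 went the other way, with 40420.5 to 42859.2 FPKM in fatty liver and 11258.4 to 28823.3 FPKM in control. The summed hepatocyte markers overlapped, with 121336 to 132922 FPKM in fatty liver and 119412 to 148476 FPKM in control. Summed markers of bile duct, stellate cells, endothelium, macrophages, lymphocytes and red cells overlapped between the groups, although SOX9 of the bile duct list was 6.28 to 11.9 FPKM in fatty liver and 1.72 to 3.03 FPKM in control (log2 difference 1.55, adjusted p = 0.038 in limma). The summed adipocyte markers did not overlap, with 133 to 178 FPKM in fatty liver and 52.4 to 97.4 FPKM in control over the 4 of 5 markers found (CIDEC, FABP4, LPL and ADIPOQ). These markers did not move together. CIDEC overlapped, with 61.5 to 172 FPKM in fatty liver and 39.8 to 93.2 FPKM in control. FABP4 was higher without overlap (4.22 to 65.1 against 0.873 to 3.57 FPKM). LPL had an estimate below 0, with overlap (0.521 to 5.14 against 2.36 to 8.77 FPKM). ADIPOQ, the defining one of the 4, was between 0.834 and 1.3 FPKM in fatty liver and between 0.701 and 0.97 FPKM in control. None of the 4 was at 0, and the part of these markers and of SOX9 in the results was not tested. In whole liver, fewer cells of a type and less RNA per cell cannot be told apart.

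Of the cholesterol genes, 1 differed between the groups in the test across all genes. In limma on log2(FPKM + 1), 1 of the 27 genes passed the adjusted p of 0.05 as higher, SC5D, where 0.845% of all tested genes did so, and 0 passed as lower, where 0.294% did so. At an unadjusted p under 0.05 there were 2 higher and 4 lower genes, where 1371 of the 10886 tested genes were higher and 402 were lower (16.3% in either direction). The estimates were split, with 14 above 0 and 13 below 0, where 67.2% of all tested genes were above 0, and their median was 0.09 against 0.12 for all tested genes. Under the 4 scalings between libraries that were tried, SC5D no longer passed and ACAT2 passed as lower.

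Several genes of fatty acid synthesis were higher in the same birds. Of 21 genes listed for this pathway, 19 were tested and 6 passed as higher (SCD, ME1, THRSP, FASN, ELOVL6 and HSD17B12), where 0.845% of all tested genes did so. The median log2 difference of the 19 was 0.99, against 0.12 for all tested genes. The count of genes that passed was 3 or 4 under the scalings, where 0.395% to 0.423% of all tested genes passed as higher. It fell to 3 without fatty liver bird 2 or bird 3. Calls fell over all genes as well in these settings, from 92 passing as higher to 16 without bird 2 and 12 without bird 3. SCD, the delta-9 desaturase, had 737, 413 and 519 FPKM in fatty liver and 18.1, 13.9 and 19.7 FPKM in control. FASN, the fatty acid synthase, had 274, 197 and 258 FPKM in fatty liver and 56.3, 58.9 and 38.1 FPKM in control. ACACA, the acetyl-CoA carboxylase that commits acetyl-CoA to fatty acids, had 83.6, 100.4 and 119 FPKM in fatty liver and 40.4, 30.5 and 10.1 FPKM in control (log2 difference 2.05, adjusted p = 0.076), and it passed in 1 of 15 alternatives, without control bird 3 (adjusted p = 0.04), with an adjusted p of up to 0.21 over the others. ACLY, which makes the cytosolic acetyl-CoA that both pathways use, had 291, 202 and 250.3 FPKM in fatty liver and 165, 181 and 213 FPKM in control, with overlapping groups (log2 difference 0.4, adjusted p = 0.35). SREBF1 had 47.4, 37.4 and 42 FPKM in fatty liver and 21.1, 36.4 and 23.3 FPKM in control, without overlap (log2 difference 0.66, adjusted p = 0.2). The 2 lists share acetyl-CoA as their start and the same 6 birds, and no test was made between them. The plot of differences with their intervals sets them side by side.

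**Figure D1:**
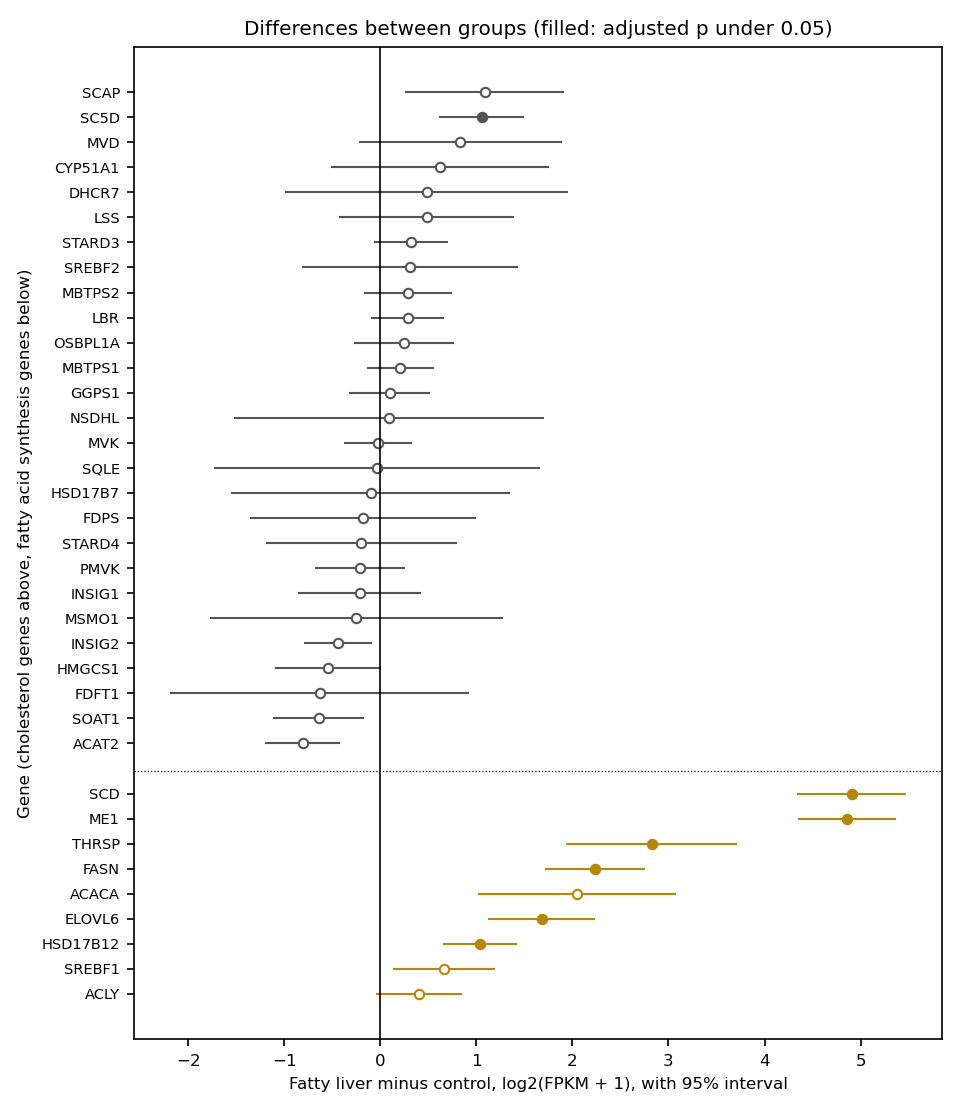
Difference between fatty liver and control for each gene on the log2(FPKM + 1) scale (x axis), with its 95% interval from limma; cholesterol genes are above the dotted line and named fatty acid synthesis genes below it, and filled points have an adjusted p under 0.05. The cholesterol genes lie between -0.81 and 1.08 and 1 of 27 is filled. Below the line are only the genes that passed plus ACACA, ACLY and SREBF1. SCD and ME1 among them lie at 4.91 and 4.86, where the median of the 19 tested genes of that list was 0.99.

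The estimates of the first steps were below 0 without passing the test. ACAT2, the cytosolic thiolase that joins acetyl-CoA units into acetoacetyl-CoA, had 138, 139 and 149 FPKM in fatty liver and 214, 251 and 288 FPKM in control. The groups did not overlap, as in 4.78% of all tested genes in this direction, and the control mean was 1.77 times as high. The log2 difference was -0.81 (standard error 0.17, adjusted p = 0.067). ACAT2 passed with libraries scaled to the same median (adjusted p = 0.049, where 0.331% of all tested genes passed as lower and 0.395% as higher), with quantile normalization (0.044, where 0.367% and 0.413% did), after rescaling without the 50 most abundant genes (0.039, where 0.367% and 0.404% did) and with voom (0.042, where 0.45% and 0.423% did). Over all 15 alternatives its adjusted p was between 0.039 and 0.21.

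HMGCS1, the next enzyme, which makes HMG-CoA in the cytosol, had 7.63, 7.79 and 14.2 FPKM in fatty liver and 13.5, 13.9 and 15.6 FPKM in control. Fatty liver bird 3 lay among the control birds and the other 2 below them (log2 difference -0.55, standard error 0.24, adjusted p = 0.31). Unlike most later enzymes, ACAT2 and HMGCS1 were highest in control bird 3.

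The enzymes from mevalonate to farnesyl diphosphate gave no common direction. MVK, mevalonate kinase, was nearly level, with 10.3, 11 and 12.7 FPKM in fatty liver and 11.4, 11.3 and 11.8 FPKM in control, and its interval for the log2 difference ran from -0.37 to 0.31. PMVK, phosphomevalonate kinase, had 43.2, 43 and 37.5 FPKM in fatty liver and 46.8, 61.3 and 38 FPKM in control (log2 difference -0.21, interval -0.67 to 0.25). Neither interval holds the difference of FASN, which was 2.24, or the median of the tested fatty acid synthesis genes, which was 0.99.

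MVD, the decarboxylase that makes isopentenyl diphosphate, had 28.7, 34.4 and 25.3 FPKM in fatty liver and 20.8, 28.8 and 6.52 FPKM in control. Its estimate of 0.83 (standard error 0.45, adjusted p = 0.41) rested on control bird 3, without which it was 0.25. FDPS, farnesyl diphosphate synthase, had 18.8, 23.9 and 22.2 FPKM in fatty liver and 19.5, 61.9 and 11.8 FPKM in control, so that the birds with fatty liver lay inside the control range, as in 12 of the 27 genes and in 20.2% of all tested genes. GGPS1, which leads off to geranylgeranyl diphosphate for protein prenylation and not to sterols, had 5.69 to 7.4 FPKM in fatty liver and 4.98 to 7.1 FPKM in control.

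Among the cholesterol genes, SQLE and FDFT1 of the squalene and lanosterol steps showed the widest spread between birds, and it lay within the control group. FDFT1, squalene synthase and the first enzyme committed to sterols, had 6.51, 11.3 and 10.2 FPKM in fatty liver and 14, 46.3 and 4.4 FPKM in control. SQLE, squalene epoxidase and a known point of control of the pathway, had 2.57, 6.02 and 3.36 FPKM in fatty liver and 4.12, 14.4 and 0.483 FPKM in control. Control bird 2 was thus 29.8 times as high as control bird 3, on 328 and 12 fragments, while the birds with fatty liver differed by 2.34 times at most. LSS, lanosterol synthase, had 18.7, 25.2 and 19.7 FPKM in fatty liver and 13.2, 29.2 and 8.18 FPKM in control.

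The intervals of these enzymes were wide. The interval of the log2 difference of SQLE ran from -1.72 to 1.66 around an estimate of -0.03, and that of FDFT1 from -2.18 to 0.92 around -0.63. The difference of FASN lies outside both, but FASN lies above the median of its list. That median, 0.99, lies inside the interval of SQLE and just above that of FDFT1. The differences of ACLY (0.4) and SREBF1 (0.66) lie inside both intervals.

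The enzymes that turn lanosterol into cholesterol repeated this order of the control birds, although control birds 1 and 2 were nearly level for LBR. In SC5D and LBR all birds with fatty liver lay above all control birds. CYP51A1, the lanosterol 14-demethylase, had 23.7, 21.5 and 16.4 FPKM in fatty liver and 12.4, 29.5 and 5.46 FPKM in control. MSMO1, the C4 methyl oxidase, had 34.3, 61 and 41.3 FPKM in fatty liver and 69.9, 130 and 15.7 FPKM in control. Its partners in removing the C4 methyl groups followed it. NSDHL had 4.56, 12.7 and 9.55 FPKM in fatty liver and 8.82, 22.8 and 1.88 FPKM in control. HSD17B7 had 7.51, 11.6 and 8.65 FPKM in fatty liver and 12.1, 25.8 and 2.6 FPKM in control. DHCR7, which reduces 7-dehydrocholesterol in the last step of 1 branch of the pathway, had 4.55, 10.7 and 6.33 FPKM in fatty liver and 5.24, 13.1 and 0.988 FPKM in control. Birds with fatty liver lay between the highest and the lowest control bird in each of these 5 genes, and the adjusted p was between 0.57 and 0.97.

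SC5D, the C5 desaturase that forms 7-dehydrocholesterol just ahead of DHCR7, had 80.9, 72.8 and 76.4 FPKM in fatty liver and 38.3, 43.6 and 28.7 FPKM in control. All 3 birds with fatty liver were above all 3 control birds, as in 18.3% of all tested genes, and the mean was 2.08 times as high. The log2 difference was 1.06 (standard error 0.19, interval 0.62 to 1.49, adjusted p = 0.046). The call was close to the threshold. It held in 2 of the 15 alternatives, in which its adjusted p ranged from 0.043 to 0.15 while the log2 difference stayed between 0.89 and 1.18, and with the replicate block the adjusted p was 0.058. LBR, which in mammals serves both as a sterol C14 reductase and as an anchor of chromatin at the nuclear envelope, had 29.3, 27.7 and 28.8 FPKM in fatty liver and 25.2, 25.3 and 19.7 FPKM in control (log2 difference 0.29, adjusted p = 0.42).

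**Figure D2:**
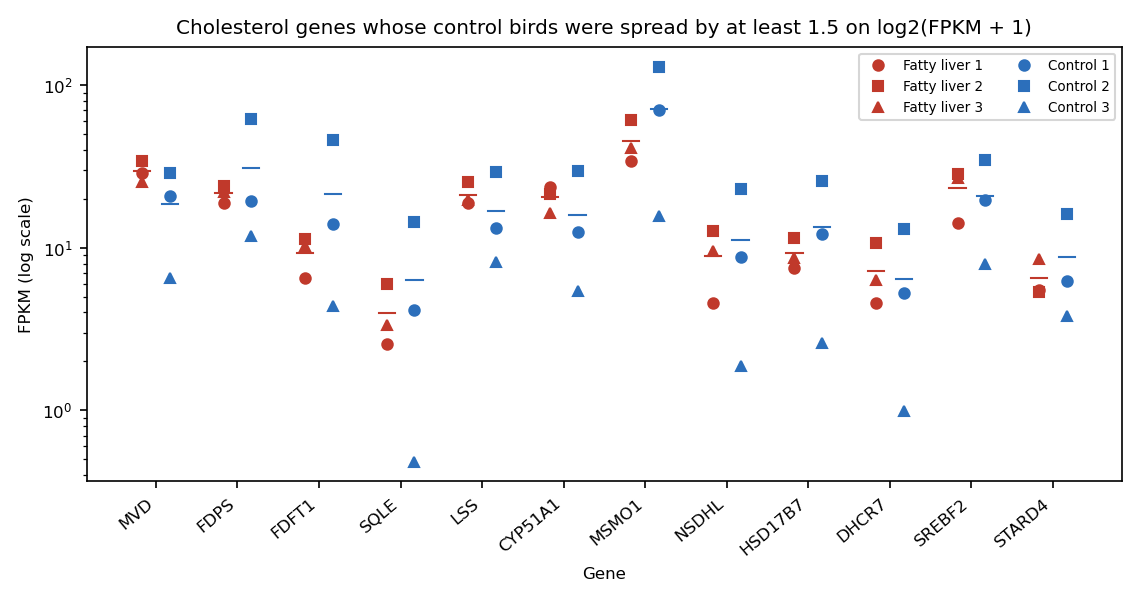
FPKM (log axis) of the 12 cholesterol genes with the widest spread among control birds, with fatty liver birds at the left and control birds at the right of each gene; symbols mark birds 1, 2 and 3 of each group and horizontal bars the group means. Control bird 2 is the highest and control bird 3 the lowest control bird in each of the 12 genes, and the birds with fatty liver lie between them in 11. The 12 genes were chosen for control birds far apart, so the position of the birds with fatty liver between them follows in part from the choice.

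The SREBP2 machinery was examined next. SREBF2 itself, which SREBP2 is known to raise in mammals, had 14.2, 28.4 and 27 FPKM in fatty liver and 19.7, 34.4 and 7.95 FPKM in control (log2 difference 0.31, adjusted p = 0.8). SCAP, its escort, had 17.5, 20.4 and 16.9 FPKM in fatty liver and 6.27, 15.8 and 5.06 FPKM in control. The groups of SCAP did not overlap and the mean was 2.02 times as high in fatty liver, with a log2 difference of 1.08 (standard error 0.35, adjusted p = 0.19). SCAP passed in 1 of 15 alternatives, without control bird 2 (log2 difference 1.53, adjusted p = 0.033), and over the others the adjusted p was up to 0.38, with a difference of 0.80 without control bird 3.

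INSIG1 and INSIG2, which retain SCAP in the endoplasmic reticulum, were the most abundant regulators. INSIG1 had 425, 423 and 484 FPKM in fatty liver and 326, 628 and 664 FPKM in control, and its groups overlapped (log2 difference -0.21, interval -0.85 to 0.42). Control bird 3 had the highest INSIG1 of the 6 birds. It was the lowest control bird in 13 of the 17 enzymes of the list, GGPS1 among the 17. The same held in 3525 of the 10886 tested genes. A link between INSIG1 and these enzymes was not tested. INSIG2 had 95, 83.5 and 91.7 FPKM in fatty liver and 118, 117 and 133 FPKM in control, with no overlap (log2 difference -0.44, standard error 0.15, adjusted p = 0.2). MBTPS1, the site-1 protease, had 11.7, 9.63 and 11 FPKM in fatty liver and 9.14, 8.94 and 9.42 FPKM in control. MBTPS2, the site-2 protease, was the least abundant of the 27, with 1.82, 1 and 1.44 FPKM in fatty liver and 0.977, 0.84 and 1.07 FPKM in control, on 41 to 100 fragments.

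Among the genes of storage and transfer, SOAT1, which esterifies cholesterol for lipid droplets, had 6.22, 7.33 and 7.76 FPKM in fatty liver and 8.9, 11.7 and 14.7 FPKM in control. The groups did not overlap and the log2 difference was -0.64 (standard error 0.2, adjusted p = 0.17). STARD4, a soluble sterol carrier that SREBP2 raises in mammals, had 5.52, 5.33 and 8.56 FPKM in fatty liver and 6.25, 16.1 and 3.81 FPKM in control, again with control bird 2 on top and bird 3 at the bottom. STARD3, which binds cholesterol in the late endosome membrane, had 6.73 to 9.14 FPKM in fatty liver and 5.5 to 6.58 FPKM in control (log2 difference 0.32, adjusted p = 0.38). OSBPL1A, an oxysterol-binding protein relative of the late endosome, had 18.5, 26.2 and 33.2 FPKM in fatty liver and 19.6, 23.5 and 20.4 FPKM in control.

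The 8 genes without overlap between the groups were thus SC5D, SCAP, LBR, MBTPS1 and STARD3 as higher and ACAT2, INSIG2 and SOAT1 as lower. They stand for 5 of 27 against 18.3% of all tested genes as higher, and 3 of 27 against 4.78% as lower. After rescaling without the 50 most abundant genes they were 1 higher and 4 lower, against 10.4% and 11.1% of all tested genes.

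**Figure D3:**
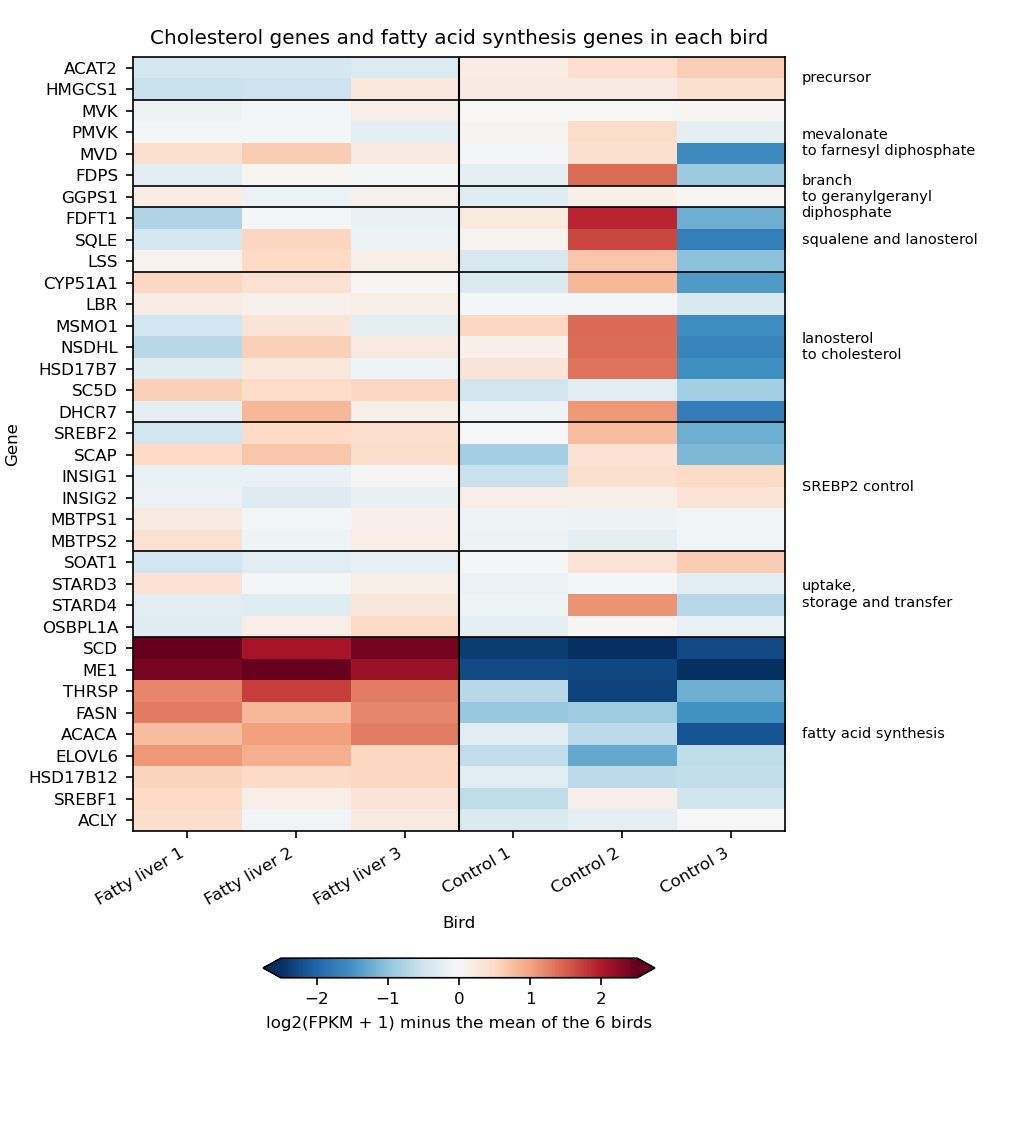
Level of each gene (rows) in each bird (columns, birds with fatty liver at the left), as log2(FPKM + 1) minus the mean of the 6 birds, with rows grouped by role and the named fatty acid synthesis genes at the bottom. In the 12 genes with a control spread of at least 1.5, control bird 2 lies above the mean of the 6 birds and control bird 3 below it. They differ by 3.38 on this scale for SQLE. The named fatty acid synthesis genes, apart from ACLY, divide the 2 groups, but most of them were named because they passed the test. Over that whole list, 13 of 19 tested genes were higher without overlap, against 18.3% of all tested genes.

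The spread among control birds was then described over the whole list. This measure and the order of birds were chosen after the values had been seen, so no test was made. The highest and the lowest control bird differed by at least 1 on the log2(FPKM + 1) scale in 14 of the 27 genes, against 10.6% of all tested genes, and by at least 2 in 8 of the 27, against 1.45%. The 12 genes with a spread of at least 1.5 (3.39% of all tested genes) were MVD, FDPS, FDFT1, SQLE, LSS, CYP51A1, MSMO1, NSDHL, HSD17B7, DHCR7, SREBF2 and STARD4. SCAP lay just outside at 1.47 and LSS was the nearest inside at 1.72. The 15 other genes had a median spread of 0.35 among control birds, against 0.46 for all tested genes.

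The order was the same in every gene of the 12, with control bird 2 highest, bird 1 next and bird 3 lowest. Over the whole list 17 of 27 genes had this order, against 23.6% of all tested genes, and 15 of 27 had it after rescaling, against 19.3%. Among the fatty acid synthesis genes 2 of 19 had this order. In 2 further lists, 6 of 10 tested genes of the isoprenoid branch had it and 7 of 29 of other sterol handling. The order alone is thus not particular to the cholesterol genes. Of the 10 isoprenoid genes, 0 had a spread of at least 1.5. No summed marker list of another cell type had the order, but single markers did. They were 2 of 3 tested adipocyte markers (LPL and FABP4), 1 of 7 macrophage markers (MARCO) and 1 of 7 lymphocyte markers (IL7R). LPL had 8.77, 5.44 and 2.36 FPKM in control birds 2, 1 and 3. Both the order and a spread of at least 1.5 were found in 12 of the 27 genes, against 0.863% of all tested genes. In the stellate cell and fibroblast list bird 2 was highest, at 256 FPKM, and bird 1 lowest, at 118 FPKM, with bird 3 at 199 FPKM.

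The birds with fatty liver, whose values were not used to choose the 12 genes, also shared an order in most of them. This order was likewise picked after the values had been seen. Genes of 1 pathway in the same 3 birds are not separate observations, so the order was not tested. Bird 2 was highest and bird 1 lowest in 9 of the 12 genes, against 11.6% of all tested genes and 0 of the other 15 genes of the list. The exceptions were MVD, CYP51A1 and STARD4. This order of the birds with fatty liver was also found in 3 of 4 tested red cell markers, 4 of 7 hepatocyte markers and 2 of 3 adipocyte markers. It was found in 2 of 19 fatty acid synthesis genes and 1 of 10 genes of the isoprenoid branch. The median spread over the whole list of 27 genes was 0.41 among birds with fatty liver and 1.03 among control birds, where over all tested genes it was 0.36 among birds with fatty liver and 0.46 among control birds.

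**Figure D4:**
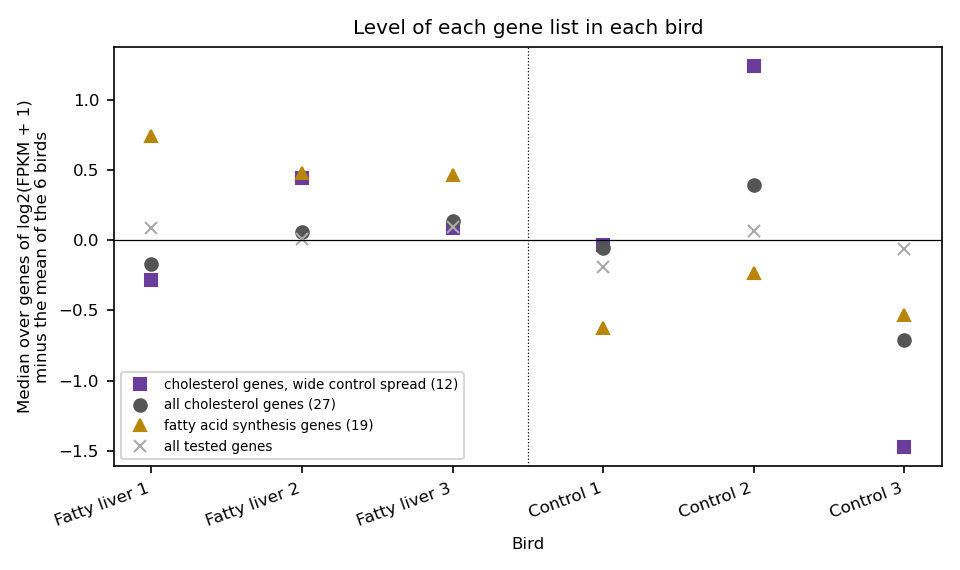
Median over each gene list (y axis) of log2(FPKM + 1) minus the mean of the 6 birds, for each bird (x axis), with birds with fatty liver at the left. The 12 wide-spread cholesterol genes stand at -0.29, 0.44 and 0.09 in fatty liver and at -0.03, 1.24 and -1.47 in control, while the fatty acid synthesis genes stand above 0 in the 3 birds with fatty liver and below 0 in the 3 control birds.

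The sign of the median log2 difference of the 27 genes depended on which control bird was kept. It was 0.35 with control bird 2 left out, where the median of all tested genes was 0.19, and -0.22 with control bird 3 left out, where that of all tested genes was 0.12. With control bird 2 left out 20 of the 27 estimates were above 0, and with control bird 3 left out 11 were. Since the 12 genes were chosen for control birds far apart, a shift of this kind in their own estimates follows from the choice. The median of the fatty acid synthesis genes was 1.09 in both cases, against 0.99 with all birds. With control bird 1 left out it fell to 0.69, where that of the 27 genes was 0.04. The labels give no feature that sets 1 control bird apart from the others, and why they differ was not tested.

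The isoprenoid branch and other genes of sterol handling, from lists that do not hold the 27 genes, gave 0 calls in limma. Over all tested genes 0.845% passed as higher and 0.294% as lower. In lists this short, 0 calls does not set them apart from that share. Of 10 tested genes of the isoprenoid branch 1 had an unadjusted p under 0.05, and of 29 tested genes of sterol handling 8 did, 6 of them higher, where 16.3% of all tested genes did. COQ2, which joins the prenyl tail to coenzyme Q, had 1.37, 1.62 and 2.23 FPKM in fatty liver and 0.799, 0.993 and 0.758 FPKM in control (log2 difference 0.56, adjusted p = 0.2). PDSS1, which makes that tail, and NUS1, a subunit of the dolichol branch, had log2 differences of 0.24 and -0.22, with overlapping groups.

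ERG28, a scaffold of the C4 demethylation enzymes in yeast, had 34.6, 35.3 and 41.1 FPKM in fatty liver and 20.2, 27.8 and 13.1 FPKM in control, without overlap (log2 difference 0.89, adjusted p = 0.15). CYP7A1, the rate-limiting enzyme of bile acid synthesis and so of cholesterol removal, had 8.97, 3.12 and 3.75 FPKM in fatty liver and 43.5, 37.5 and 4.07 FPKM in control. Control bird 3 lay with the fatty livers in this gene, and the log2 difference of -1.82 did not pass (adjusted p = 0.3). It passed in 1 of 15 alternatives, without control bird 3 (-2.83, adjusted p = 0.028), and the adjusted p was up to 0.55 over the others, with differences of -1.27 without control bird 1 and -1.37 without control bird 2.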

How the data were processed

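Liver RNA of 3 F1 males with fatty liver and 3 control males was sequenced, with 1 library per bird. Noise and low-quality reads were removed by the authors using Sickle and SeqPrep, the rest were mapped to Gallus_gallus_5.0, and 1 FPKM value per gene and library was deposited, with 0 columns left unused here. The aligner, the counting tool and the annotation are not given in the sources used here. Genes were listed by NCBI Gene ID, and 16332 of the 20498 IDs were named from the RefSeq gene table of assembly GRCg7b, another build, so no coordinates are given.

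The 10886 genes that averaged 1 FPKM or more were compared as log2(FPKM + 1) with limma 3.58.1 in R 4.3.3 (lmFit, then eBayes with a mean-variance trend), fatty liver minus control, with Benjamini-Hochberg adjustment over all tested genes and a threshold of 0.05. Intervals are 95% intervals from this fit. The 1 added before the log understates differences of genes with low values. An exact permutation test of 3 birds against 3 cannot go below p = 0.1, so none was run. Each p-value sets the difference between the group means against the spread of birds within groups, which eBayes draws toward a trend over all genes. It treats the birds as independent, although it is not stated whether birds of a group shared a sire.

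Whole fragments were worked out from the FPKM and gave back 100.0% of the values above 0 (within 0.02 of a whole fragment). They served for depth, which limits precision through counting error, and for voom. No named pathway gene was at or under 3 fragments in any bird.

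The genes and lists were chosen with earlier results of these data known. Named were all 31 listed cholesterol genes, the fatty acid synthesis genes that passed with ACACA, ACLY and SREBF1, and, of the isoprenoid and sterol handling lists, genes that passed and the 3 with the largest differences of each. Other names are marked as chosen after their values were seen. Alternatives were a pseudocount of 0.1, no filter, quantile normalization, scaling to the same median, rescaling without the 50 most abundant genes, voom, no trend, robust eBayes, a replicate block, and each bird left out. The fitting code was tested on simulated data. The qRT-PCR and the parent generation were not analysed here. A result on 1 gene that this rule names is not reported here.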

Additional observations from a re-analysis of the deposited data

How the results depend on the processing

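Calls near the threshold depended on the processing, and the cause was not tested. Over all tested genes 124 passed, with 30 without the filter on low values, 79 with libraries scaled to the same median, 84 after rescaling without the 50 most abundant genes, and 20 to 127 with 1 bird left out (21 without fatty liver bird 2, 20 without bird 3, 77 without control bird 1 and 36 without control bird 2). The share called higher was 74.2%, against 54.4% with the same median and 52.4% after rescaling. Cholesterol genes called higher were 1, and 0 with no filter, the same median, quantile normalization, rescaling, no trend, the replicate block and voom, and 0 to 1 with 1 bird left out, where the 1 was SCAP. Cholesterol genes called lower were 0, and 1 with the same median, quantile normalization, rescaling and voom. Fatty acid synthesis genes called higher were 6, and 3 with no filter, the same median and voom, and 3 to 6 with 1 bird left out. The median of the 27 genes was 0.09, between -0.05 and 0.17 in the settings that kept all birds and between -0.22 and 0.35 with 1 bird left out.

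Of the 27 genes, 11 changed sign in at least 1 of the 15 alternatives and 16 in none, and no value that changed sign had passed the threshold. GGPS1 was -0.029 with the same median, -0.032 with quantile normalization, -0.045 after rescaling and -0.035 with voom. NSDHL was -0.036, -0.030 and -0.055 in the first 3 of these. SQLE was 0.22 with a pseudocount of 0.1 and 0.10 with voom. With 1 bird left out, the log2 difference lay between -0.10 and 0.034 for MVK, -0.67 and 0.48 for FDPS, -0.029 and 0.19 for GGPS1, -1.40 and 0.17 for FDFT1, -0.89 and 0.80 for SQLE, -1.09 and 0.39 for MSMO1, -0.72 and 0.81 for NSDHL, -0.89 and 0.56 for HSD17B7, -0.26 and 1.15 for DHCR7, -0.22 and 0.77 for SREBF2, and -0.60 and 0.31 for STARD4.

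With the replicate number as a block, 140 genes passed over all and 0 of the 27. Deviations of same-numbered birds correlated at 0.02, 0.04 and 0.05, and they are different animals, so the numbers do not pair them. The order of the birds was recounted under 2 scalings chosen after seeing the data. The control order held in 14 and 15 of the 27 genes with the same median and after rescaling, and the order of the birds with fatty liver in 12 and 8. After rescaling, 13.1% of all tested genes had the latter order. Fatty liver bird 2 had the lowest median of its group, 6.64 FPKM against 7.30 and 7.13. Scaling to the same median thus raises bird 2 against the other birds of its group in every gene. With 3 birds a group, the widest intervals held differences of either sign.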

Other observations

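Among all tested genes, 94 (0.863%) had the order control bird 2, bird 1, bird 3 with a spread of at least 1.5 on the log2(FPKM + 1) scale, and 12 of these were cholesterol genes. Outside the lists, 2 genes with this pattern were chosen after their values were seen. IDI2, an isopentenyl diphosphate isomerase, which converts the product of MVD, had 44.1, 64.2 and 38.6 FPKM in fatty liver and 71.4, 147 and 31.8 FPKM in control. Its log2 difference in limma was -0.53 (adjusted p = 0.64), and its birds with fatty liver lay inside the control range. CYP8B1, the sterol 12-alpha-hydroxylase of bile acid synthesis, had 9.73, 5.80 and 9.29 FPKM in fatty liver and 5.31, 31.5 and 2.45 FPKM in control. Its log2 difference was 0.03 (adjusted p = 0.99), and fatty liver bird 2, the highest of its group for IDI2, was the lowest of its group for CYP8B1.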
